A study of Mus musculus with 3 samples.

Results

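The 6 genes described here, Rgs1, Rgs2, Rgs10, Rgs14, Rgs18 and Rgs19, encode regulators of G-protein signalling (RGS proteins). They were taken by name from the gene tables, which list 55536 genes, 21 of them protein-coding genes named Rgs and a number. The set was selected on measured values of these same libraries, in which Rgs1 was known to be among the genes that vary most between libraries. Levels and spreads of the 6 genes are therefore descriptions, and no test was made of them. Every library came from mouse bone marrow-derived macrophages of strain C57BL/6J, which are primary cells grown from marrow, and held ribosome-depleted total RNA of the chromatin fraction. That fraction is enriched in RNA still attached to the DNA template, so it holds many unspliced transcripts. All cells had received 100 ng/ml of Lipid A, the membrane anchor of lipopolysaccharide sensed through TLR4, for 12 h. They then spent 12 h without it and were exposed again to 100 ng/ml for 20 min. There was 1 group of 3 libraries, and cells without these exposures are not analysed here, so no value below is an effect of Lipid A.

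The libraries held 13953780, 24222661 and 16571228 expected counts in replicates 1, 2 and 3, and were made from 1 µg, 250 ng and 500 ng of RNA respectively. Starting amount, depth and replicate cannot be told apart. The labels name biological replicates but give them all 1 donor entry, so the spread between them may be technical in part. All 8 macrophage markers were above 1 TPM (a level scaled for transcript length and summing to the same total in each library) in every library, led by Adgre1 at 355, 374 and 272 TPM. The markers of other cells were low in the gene table. None of 7 T and NK cell, 6 B cell, 8 neutrophil and 5 mast cell markers reached 1 TPM in every library, and Ncr1, Klrb1c, S100a8, S100a9 and Ly6g were at 0 counts throughout. The highest of each list, Cd247, Ms4a1, Ngp and Kit, reached 0.81, 0.22, 1.27 and 1.86 TPM in any library. Of the dendritic cell markers 1 of 6 (Zbtb46) was above 1 TPM in all 3 libraries, of the erythroid markers 1 of 5 (Alas2, 9.37 to 14.2 TPM), and of the megakaryocyte and platelet markers 4 of 6.

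G-protein-coupled receptors signal by loading a G protein alpha subunit with GTP, which frees it from the beta and gamma subunits. RGS proteins bind the active alpha subunit and speed up its GTP hydrolysis, which ends the signal sooner. In leukocytes this limits the response to chemokines and other attractants that act through the Gi class. Rgs1, Rgs2 and Rgs18 belong to 1 subfamily of small proteins made up of little more than the RGS domain. Rgs10 and Rgs14 belong to another, and Rgs14 adds Ras-binding domains and a GoLoco motif, which holds inactive alpha subunits. Rgs19 belongs to a further subfamily with a cysteine-rich stretch.

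All 6 genes were above 1 TPM in every library, as were 9949 of 22028 protein-coding genes. Their mean levels spanned 2.88 to 104 TPM with a median of 12.8 TPM, beside a median of 11.8 TPM over those 9949 genes. In bulk RNA, fewer cells with a transcript and less of it per cell cannot be told apart.

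Rgs1, which is induced in activated lymphocytes and myeloid cells and restrains migration towards chemokines, was at 179, 26.7 and 106 TPM in replicates 1, 2 and 3. Replicate 2 was far below the other 2 libraries, and the mean was 104 ± 76.1 TPM (SD, n = 3). Rgs19, which acts on Gi-class subunits, was at 32.3, 16.6 and 24.2 TPM, also lowest in replicate 2, with a mean of 24.4 ± 7.84 TPM (SD, n = 3). Rgs10, known in macrophages and microglia for restraining inflammatory gene expression, was at 14.5, 16.1 and 19.3 TPM, a narrow spread with a mean of 16.6 ± 2.45 TPM (SD, n = 3).

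Rgs14, the scaffold with the GoLoco motif, was at 10.2, 7.84 and 8.8 TPM (mean 8.96 ± 1.21 TPM, SD, n = 3). Rgs2, a regulator with a preference for Gq-class subunits, was at 5.38, 6.69 and 12.2 TPM and stood highest in replicate 3 (mean 8.1 ± 3.64 TPM, SD, n = 3). Rgs18, a regulator best known from megakaryocytes and platelets, was at 2.58, 1.93 and 4.13 TPM, again highest in replicate 3 (mean 2.88 ± 1.13 TPM, SD, n = 3).

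By mean TPM the order was Rgs1, Rgs19, Rgs10, Rgs14, Rgs2 and Rgs18. The libraries of Rgs1 and Rgs19 overlapped, because replicate 2 of Rgs1 (26.7 TPM) was below replicate 1 of Rgs19 (32.3 TPM), although Rgs1 was higher within each of the 3 libraries. Rgs19 and Rgs10 overlapped too, with Rgs19 higher in 3 of 3 libraries, as did Rgs14 and Rgs2, with Rgs14 higher in 2 of 3. No library of Rgs10 was as low as any of Rgs14, and none of Rgs2 as low as any of Rgs18.

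**Figure D1:**
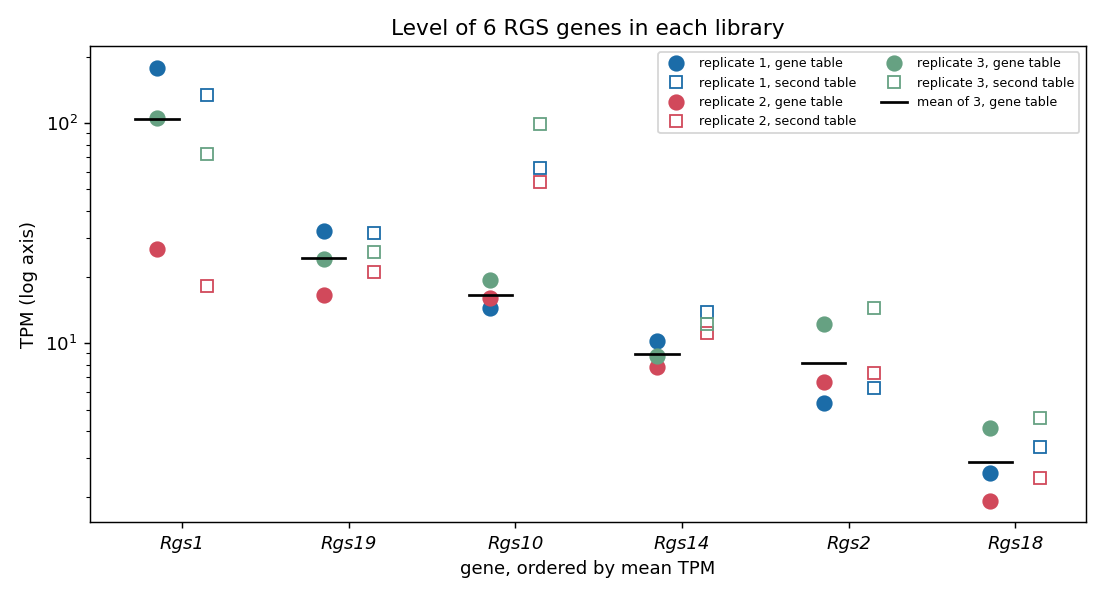
TPM (log axis) of each gene in each library, with filled circles for the gene table, open squares for the second transcript table and a bar at the mean of the gene table. Rgs1 ranges from 26.7 to 179 TPM between libraries, and Rgs10 is the gene whose second-table values, 54.1 to 99.3 TPM, lie above all its gene-table values by the widest margin.

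The deposited data hold a second estimate of each transcript, in tables whose column names match another program. There Rgs1 was at 135, 18.3 and 72.4 TPM and Rgs19 at 31.7, 21.2 and 25.9 TPM, so that Rgs1 fell below Rgs19 in replicate 2. Rgs10 was at 62.9, 54.1 and 99.3 TPM, 72.1 ± 24 TPM on average (SD, n = 3), close to the mean of Rgs1 at 75.1 ± 58.2 TPM. In replicates 2 and 3 of that table Rgs10 was above Rgs1. The excess of Rgs10 over its gene-table level lay mostly in short noncoding models of the gene. Rgs10-203, a transcript of 160 nt, was at 0 TPM in the first transcript table and at 32.2, 18.7 and 60.1 TPM in the second, from 19, 25 and 48 estimated counts. Rgs10-204, of 458 nt, was at 0, 0 and 0.45 TPM in the first and at 11.7, 13.1 and 17.1 TPM in the second. The authors' own intervals in the gene table (their level is not stated) were also wide for Rgs10, 11.9 to 42.7 TPM in replicate 1. The 3 protein-coding models of Rgs10 together were close in both, at 10.7 ± 1.29 TPM and 12.8 ± 1.27 TPM (SD, n = 3).

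Most Rgs1 counts were assigned to an unspliced transcript model. In annotation M21 the gene has 9 transcripts, 2 protein-coding, 4 marked for nonsense-mediated decay and 3 with a retained intron. One of these, Rgs1-205, is a single exon of 5843 nt at chr1:144243213-144249055 (mm10, minus strand) that runs through all 4 introns of the coding transcript Rgs1-208, and 53.2% of its bases are intron. Its counts were 6448, 1756 and 4342 in replicates 1, 2 and 3, against 288, 58.6 and 213 for Rgs1-208. A read that lies within an exon fits both models, and its split between them is the authors' estimate. Rgs1-205 thus held 87, 87.7 and 87.5% of the gene's counts, nearly the same share in the library with the least Rgs1 as in that with the most. In TPM its share was 54.4, 45 and 51.4%, and a further 25.8, 32.6 and 24.8% lay on Rgs1-203, a model of 414 nt with 107, 39.6 and 65 counts, whose short length gives each count a large weight.

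Shown here are the exon and intron boundaries that a read of Rgs1-208 would skip and a read of Rgs1-205 crosses. Each is 20 bases on either side of a boundary of Rgs1-208 within Rgs1-205, 5′ to 3′ from the GENCODE M21 transcript sequence, with coding bases on the exon side. Capitals mark the first or last bases of the intron.
Intron 1 donor, chr1:144248881-144248920: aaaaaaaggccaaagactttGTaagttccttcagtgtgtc
Intron 1 acceptor, chr1:144248540-144248579: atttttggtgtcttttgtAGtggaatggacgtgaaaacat
Intron 2 donor, chr1:144248459-144248498: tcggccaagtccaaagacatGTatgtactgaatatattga
Intron 2 acceptor, chr1:144247948-144247987: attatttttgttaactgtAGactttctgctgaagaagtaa
Intron 3 donor, chr1:144247886-144247925: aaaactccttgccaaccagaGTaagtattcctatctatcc
Intron 3 acceptor, chr1:144246334-144246373: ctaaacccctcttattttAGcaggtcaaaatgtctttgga
Intron 4 donor, chr1:144246170-144246209: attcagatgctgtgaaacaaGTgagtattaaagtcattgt
Intron 4 acceptor, chr1:144245468-144245507: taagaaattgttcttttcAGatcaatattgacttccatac
All 4 introns begin with GT and end with AG, the usual splice site bases. They are 341, 511, 1552 and 702 bases long, in order from the start of the gene. The boundaries separate Rgs1-205 from Rgs1-208 but not from every other model. Rgs1-202, for 1, runs through introns 1, 2 and 4, and Rgs1-203 crosses the intron 3 donor. Only the intron 3 acceptor is crossed by Rgs1-205 alone.

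**Figure D2:**
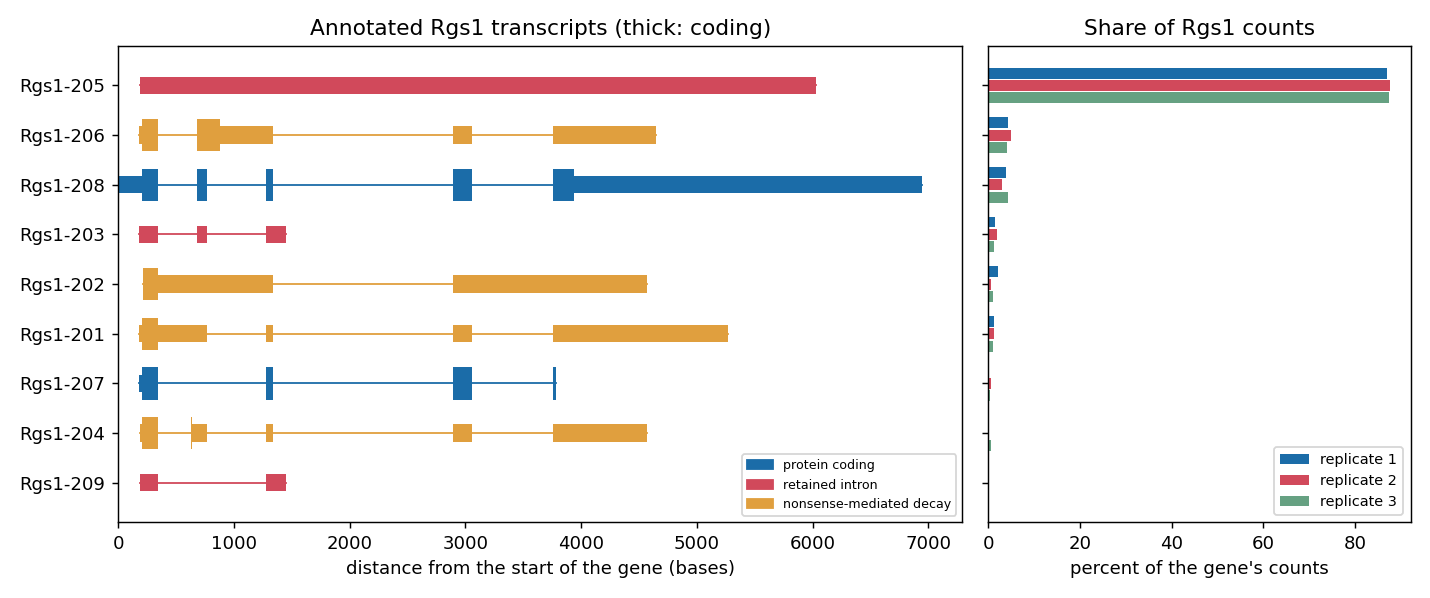
Left, the 9 annotated Rgs1 transcripts by distance from the start of the gene in bases, with exons as bars, coding parts thicker and colours for the transcript class. Right, the percent of the gene's counts on each transcript in each library, where the single-exon model Rgs1-205 takes 87 to 87.7%.

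Retained-intron models took 80.1, 77.6 and 76.2% of Rgs1 TPM, and 88.4, 89.7 and 88.8% of its counts. Over the 6149 protein-coding genes that had such a model and averaged 50 counts or more, the median share was 46.9% of TPM, and 92.7% of these genes had a lower share than Rgs1. For Rgs2 the share was 42.3, 59.5 and 50% of TPM, from 1 model of 650 nt. Rgs10 had 36.1, 26.7 and 40.7%, and Rgs14 34.6, 38.9 and 40.6%, both below that median. Rgs18 has 1 transcript and Rgs19 12, none of them of this class. In counts the median over these genes was 29.9%. Rgs2 was then below it at 16.9 ± 3.08%, Rgs10 below it at 21.9 ± 6.05% and Rgs14 above it at 35.7 ± 3% (SD, n = 3), so the side of the median changed with the unit for Rgs2 and Rgs14.

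**Figure D3:**
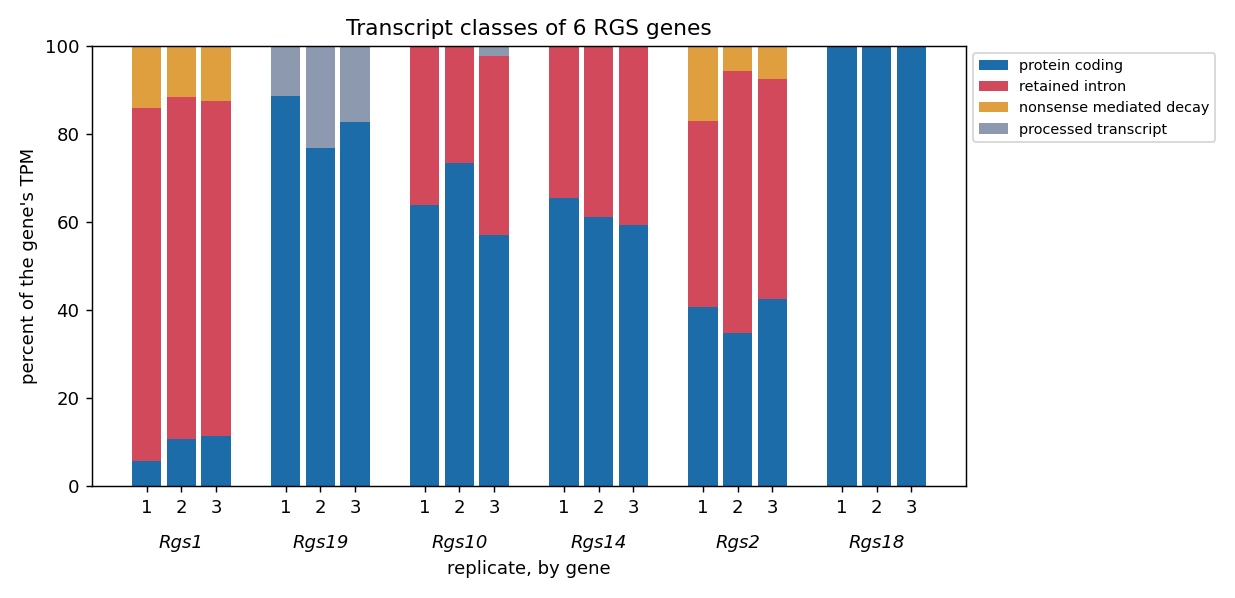
Percent of each gene's TPM on each annotated transcript class, 1 bar per library and 3 bars per gene. Retained-intron models take 76.2 to 80.1% of Rgs1, 34.6 to 40.6% of Rgs14 and none of Rgs18 or Rgs19.

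The annotation also set how much of each gene could be counted, since the tables count reads against annotated transcripts. Exons of Rgs1 transcripts together cover 100% of its span of 6.9 kb, so reads from any of its introns could be assigned. For Rgs2 the covered part is 75.2% of 4.8 kb, for Rgs19 40.1% of 5.6 kb and for Rgs14 28.3% of 15.0 kb. For Rgs18 it is 8.93% of 22.8 kb and for Rgs10 3.79% of 45.1 kb, so nearly all intronic RNA of these genes has no model to fall on. With protein-coding models alone, the mean level of Rgs1 was 8.4 ± 4.87 TPM, below Rgs19 at 20.5 ± 7.95 TPM and Rgs10 at 10.7 ± 1.29 TPM (SD, n = 3). Rgs14 was at 5.58 ± 0.996 TPM and Rgs2 at 3.24 ± 1.69 TPM on that measure. By library Rgs1 was at 10.4, 2.85 and 11.9 TPM and Rgs10 at 9.27, 11.8 and 11 TPM. Rgs1 was thus below Rgs10 in replicate 2 alone. Of the Rgs1 values, 3.67, 2.23 and 7.77 TPM lay on Rgs1-207, a model of 409 nt with 8.29, 9.85 and 18.8 counts. In the second table Rgs1-207 was at 0 TPM, and the coding models of Rgs1 together were at 2.22 ± 1.84 TPM (SD, n = 3). The first place of Rgs1 among the 6 genes therefore held for all models together and not for the coding models.

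For differences between libraries, counts were scaled to log2 CPM (counts scaled to the library total, with library factors), and the range of a gene is its highest minus its lowest library. Rgs1 was at 9.05, 6.39 and 8.26 log2 CPM in replicates 1, 2 and 3, from 7413, 2003 and 4962 counts. Its range of 2.66 log2 units, or 6.3-fold, was larger than that of 99.9% of the 9540 protein-coding genes that averaged 50 counts or more. By SD of log2 CPM it was number 3 of 5518 protein-coding genes averaging 10 TPM or more, the property for which it was chosen. Counting error alone gives that range a 95% interval of 2.58 to 2.73 (exact Clopper-Pearson, for the libraries with the highest and lowest values, reads taken as independent). On counts of protein-coding models alone the range was 2.87, with the same highest and lowest library. In TPM those models were at 10.4, 2.85 and 11.9, highest in replicate 3.

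Rgs2 was at 2.56, 3.14 and 3.74 log2 CPM, from 81, 207 and 216 counts, and its range of 1.18 had a counting interval of 0.83 to 1.59. Rgs18 was at 2.02, 1.96 and 2.72 log2 CPM, from 55, 90 and 105 counts, with a range of 0.76 and an interval of 0.36 to 1.20. Both were highest in replicate 3, where Rgs1 was in the middle. Rgs19 was at 4.34, 3.83 and 4.09 log2 CPM, from 281, 337 and 274 counts, and its range of 0.50 had an interval of 0.27 to 0.74.

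Rgs10 had a range of 0.45 from 69, 162 and 91 counts, and its counting interval of 0.05 to 0.89 nearly reached 0. Rgs14 had a range of 0.20 from 249, 421 and 252 counts, with an interval of -0.06 to 0.45, so a difference between libraries was not detectable at this depth. For these 2 genes the highest and lowest libraries also changed with the scale. On TPM, Rgs10 was highest in replicate 3 instead of replicate 2, and Rgs14 was lowest in replicate 2 instead of replicate 3. TPM itself put the median gene of replicates 1 and 3 higher than in replicate 2, by 0.29 and 0.26 on the log2(TPM + 1) scale. For Rgs1, Rgs2, Rgs18 and Rgs19 the highest and the lowest library were the same under all 9 other scalings and count choices tried.

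Of the 6 genes, 2 (Rgs1 and Rgs2) had a range of at least 1 log2 unit, where 6.05% of the 9540 genes did. Since Rgs1 was picked for its spread, the count says nothing about RGS genes in general. Their median range was 0.63, beside 0.36 over all these genes. Rgs1, Rgs14 and Rgs19 were highest in replicate 1, Rgs10 in replicate 2, and Rgs2 and Rgs18 in replicate 3. Over all 9540 genes 32.9, 38.3 and 28.8% were highest in replicates 1, 2 and 3. Any single library left out brought the count of 2 genes to 1, though a range over fewer libraries can only stay the same or shrink. Without replicate 2 the range of Rgs1 was 0.79, without replicate 1 that of Rgs2 was 0.61, and without replicate 3 those of Rgs2 and Rgs18 were 0.58 and 0.06.

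**Figure D4:**
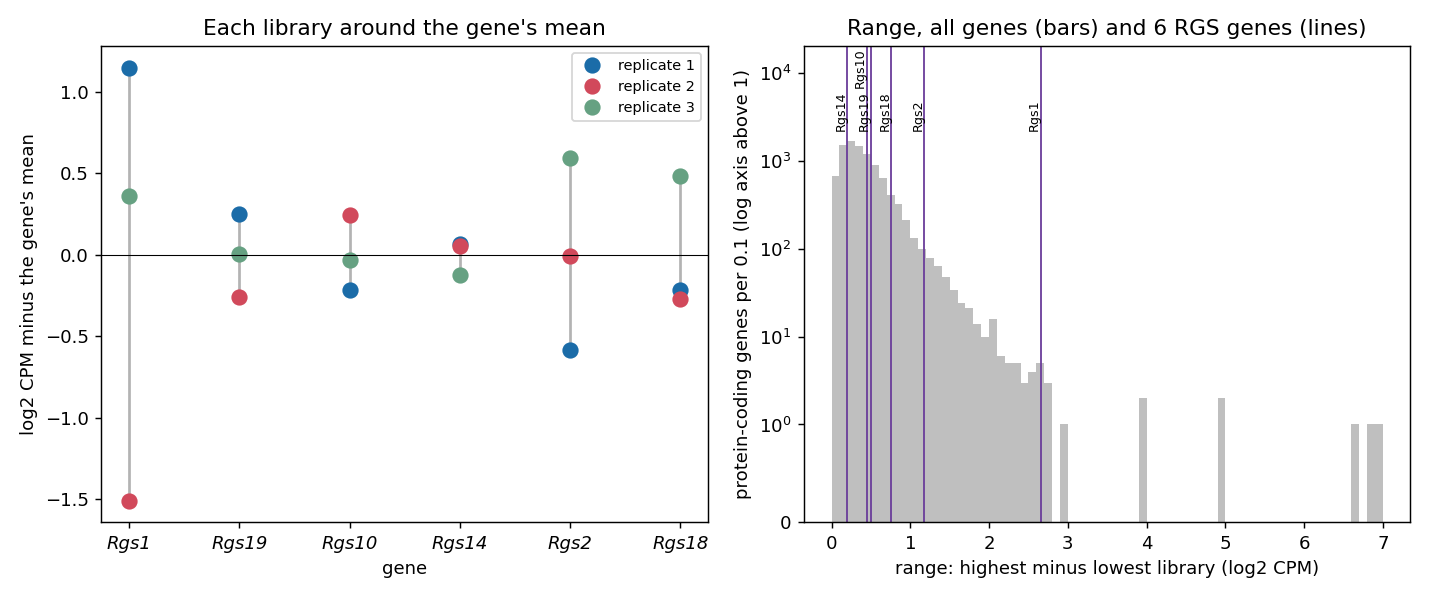
Left, log2 CPM of each library minus the mean of the gene, with a line from the lowest to the highest library. Right, the number of protein-coding genes averaging 50 counts or more by their range in log2 CPM (bars, log axis above 1), with lines at the 6 RGS genes, of which Rgs1 at 2.66 and Rgs2 at 1.18 lie past 1.

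Some measures of the whole library stood in the order of Rgs1 or its reverse, and others shared its highest or its lowest library. Starting RNA (1 µg, 250 ng and 500 ng) stood in the same order of libraries as Rgs1, and total counts in the reverse order. Counts on mitochondrial genes also had the order of Rgs1, at 0.0738, 0.0215 and 0.0558% of all gene counts in replicates 1, 2 and 3. Malat1, a nuclear noncoding RNA, was at 31143, 21405 and 33442 TPM, lowest in replicate 2 as Rgs1 was. Retained-intron models of all genes took 18.6, 15.3 and 15.3% of counts, and entries that are not genes took 2.46, 0.484 and 0.327%. Their part in the range of Rgs1 was not tested. Rgs1 is also known from B and T cells, and the summed level of the 6 B cell markers was 0.25 to 0.38 TPM and of the 7 T and NK cell markers 0.73 to 0.95 TPM in the gene table. In the second table these sums were 3.41 to 5.59 and 17.2 to 21.3 TPM, the latter mostly on Cd3d at 13.4, 13 and 15.7 TPM. The 6 megakaryocyte and platelet markers, the cells for which Rgs18 is best known, summed to 5.62, 7.6 and 9.28 TPM. Pf4 alone put replicate 3 highest, at 1.37, 1.84 and 5.6 TPM from 5, 11 and 13 counts. Without it the sum was 4.25, 5.76 and 3.68 TPM, lowest in replicate 3, where Rgs18 was highest. The second table gave 7.9, 9.52 and 8.37 TPM for the same sum, lowest in replicate 1 instead. Of these 5 markers, 1 had enough counts for the comparison of ranges. The part of such cells in the level of Rgs18 was not tested.

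The 5 protein-coding genes averaging 10 TPM or more whose log2 CPM around the mean lay nearest to Rgs1 were Clec4e, Cd69, Marcksl1, Fabp4 and mt-Atp8. Clec4e, the receptor Mincle for mycobacterial and damage signals, was nearest at a distance of 0.20 and stood at 163, 24.9 and 86.5 TPM. Cd69, an early activation marker of leukocytes, was at 41.5, 5.15 and 18.2 TPM. Fabp4, a fatty acid carrier, was at 36, 6.12 and 29.5 TPM, and mt-Atp8, a mitochondrial gene, at 347, 72.3 and 383 TPM. The nearest genes to Rgs2 were Gas6, Rnf150, Sik1, Mpp7 and Slc40a1. Gas6, the ligand of the receptors Axl and Mertk, was at 23.6, 26.4 and 48.8 TPM, and Slc40a1, the iron exporter ferroportin, at 34.3, 40.9 and 67.4 TPM. Likeness over 3 libraries rests on 3 points that share depth and library preparation.

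Rgs2, Rgs1 and Rgs18 lie within 776 kb on chromosome 1, all on the minus strand. Rgs2 is at chr1:143999338-144004161, Rgs1 at chr1:144242296-144249242 and Rgs18 at chr1:144752683-144775435 (mm10). Among the 5 protein-coding genes of this stretch, Rgs13, between Rgs2 and Rgs1, had 0 counts in every library, and Rgs21, between Rgs1 and Rgs18, had 2, 0 and 1 counts. Levels thus alternated along the stretch, from 8.1 TPM for Rgs2 through none for Rgs13, 104 TPM for Rgs1 and 0.0233 TPM for Rgs21 to 2.88 TPM for Rgs18. The outer genes were both highest in replicate 3, and Rgs1 between them in replicate 1. The other members are single, Rgs19 at chr2:181688419-181693977 and Rgs10 at chr7:128373621-128418758 on the minus strand, and Rgs14 at chr13:55369732-55384687 on the plus strand.

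Reads could be told apart between members. No stretch of 31 bases in a transcript of 1 member occurs in a transcript of another. Rgs1, Rgs2, Rgs10, Rgs18 and Rgs19 share none with a transcript of any gene on either strand. Rgs14 shares 133 of 4340 such stretches, or 3.06%, with transcripts of 1725 genes. Rgs10 overlaps the noncoding entry Gm15503 on the same strand, which was at 2.69, 2.32 and 2.09 TPM.

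Promoter windows of RefSeq (GRCm38.p6), from 250 bases before a gene start to 50 after it, were at hand for 3 members: 1 for Rgs2, 1 for Rgs10 and 3 for Rgs19. They were searched on both strands for TATAAA (the TATA box), TGANTCA (AP-1), TGACGTCA and its shorter form TGACGT (CRE), GAGGAAG (ETS), TTGCNNAA (C/EBP), and the kappaB and ISRE patterns. The window of Rgs2, chr1:144004100-144004399, held the short CRE form once, as ACGTCA at position -186, a form present in 7.51% of 32851 windows. The window of Rgs10, chr7:128418123-128418422, held 1 match to the kappaB pattern, GGGAGGGACC at -191. That pattern is present in 20.7% of all windows.

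For Rgs19, the window at chr2:181693928-181694227 held GGGAAAACCC at -188, GGGAAGTACC at 5 and the ETS letters at -21. The window at chr2:181693761-181694060 overlaps it and holds the same GGGAAGTACC and ETS letters. The third, chr2:181691768-181692067, held GGGAGGGGCC at -48 and the ETS letters at -110. The ETS letters are present in 13.6% of all windows. No other pattern searched was found in these 5 windows, and a match is a run of letters and not a shown binding site.

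The rest of the signalling chain was read from lists of named genes, with levels from the gene table unless the second is named. Of 24 other RGS-domain proteins and related regulators, 8 were above 1 TPM in every library, where 9949 of 22028 protein-coding genes were. The median mean level of the 24 was 0.035 TPM. By the second quantification, 14 of the 24 were above 1 TPM in every library. The 6 genes described here were selected on these libraries, so their own share is no comparison for this list. Ric8a, a chaperone of alpha subunits, was highest at 30.9, 32.2 and 41 TPM. Gpsm3, a GoLoco protein of leukocytes, was at 18.8, 13.2 and 15.6 TPM, and Ric8b, a further chaperone, at 13.8, 9.66 and 12.9 TPM. Rgs4, Rgs5, Rgs6, Rgs7, Rgs13, Rgs17 and Rgs22 had 0 counts in every library of the gene table. By counting error alone, 0 allows up to 3 counts, or 0.22, 0.124 and 0.182 CPM in replicates 1, 2 and 3. That limit does not cover how reads were assigned. The second table gave Rgs4, Rgs5, Rgs6, Rgs7 and Rgs17 more than 3 estimated counts in each library, with 202, 372 and 243 for Rgs7. None of the 7 genes of this list that averaged 50 counts or more had a range of 1 log2 unit. Estimates differed between tables for Rgs11, at 0.59 ± 0.0854 TPM in the gene table and 22.6 TPM in the second, where Rgs11-203, a retained-intron model of 832 nt, held 90% of it.

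Among the 15 alpha subunits, the direct targets of RGS proteins, 9 were above 1 TPM in every library. Gnai2, the main Gi subunit of leukocytes, was highest at 69.3, 53.3 and 56.7 TPM, with a range of 0.21 log2 units. Gnas, which stimulates adenylyl cyclase, was at 50, 39.7 and 55.5 TPM, and Gnaq, which activates phospholipase C beta, at 68.1, 27.6 and 46.5 TPM. Gnai1, a further Gi subunit, had 0 counts. In log2 CPM, none of the 9 alpha subunits with at least 50 counts on average had a range of 1 log2 unit. On that scale the spread of Rgs1 had no counterpart of that size among them. Gnaq, with a range of 0.76 in log2 CPM, spread more in TPM, with the order of libraries that Rgs1 had.

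Of the 17 beta and gamma subunits, 8 were above 1 TPM in every library. Gnb2 was highest at 79.8, 59.8 and 73.8 TPM, followed by Gnb1 at 67.1, 56.3 and 57.3 TPM and Gngt2 at 21.3, 12.8 and 18.6 TPM. Gngt1 and Gng13 had 0 counts. In the second table the order was another, with Gnb1 at a mean of 157 TPM above Gnb2 at 61.1 TPM, and Gng2 (31.1 TPM) and Gnb5 (22.4 TPM) above Gngt2 (21.4 TPM). Gnb5 was at 0.463 TPM in the gene table. Gng12 alone of the 7 with enough counts had a range of at least 1, at 13.9, 4.72 and 7.93 TPM (1.12 log2 units).

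Of 23 receptors for attractants, most of them coupled to Gi, 11 were above 1 TPM in every library. C3ar1, the receptor for complement fragment C3a, was highest at 83.7, 39.2 and 71.1 TPM in the gene table. In the second table Cmklr1, the chemerin receptor, stood above it, at a mean of 110 TPM against 49.6 TPM, while the gene table had Cmklr1 at 7.61 TPM. Of the 12 with enough counts, 5 had a range of at least 1 log2 unit, against 6.05% of all genes. Among them were Ccrl2, C5ar1, Fpr2 and Fpr1. Ccrl2 and C5ar2 of this list are atypical receptors that do not signal through G proteins, and without them 4 of 10 had such a range. Ccrl2 was at 33.2, 8.43 and 30.9 TPM, and C5ar1, the receptor for complement fragment C5a, at 17.9, 5.96 and 12.6 TPM. Both were lowest in replicate 2, as was Rgs1.

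The formyl peptide receptor Fpr1 was at 8.08, 1.99 and 2.54 TPM, also lowest in replicate 2. Its relative Fpr2 was at 17.5, 5.21 and 3.73 TPM and was lowest in replicate 3. Of the 12 receptors, 9 were highest in replicate 1 (9 of 10 without the atypical ones), where 32.9% of all genes were. Cxcr2 and Ltb4r1 had 0 counts in the gene table.

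Downstream, 14 of 19 effectors and 6 of 7 receptor kinases and arrestins were above 1 TPM in all 3 libraries. Arhgef1, which carries an RGS-like domain and is activated by G12-class subunits, was at 151, 166 and 226 TPM. Pik3r5, a subunit of the phosphoinositide kinase activated by beta and gamma subunits, was at 205, 69.1 and 126 TPM, and Adcy7, an adenylyl cyclase of myeloid cells, at 100, 111 and 99.1 TPM. The lowest effector was Adcy4, at 0.14, 0 and 0.06 TPM. Adcy9 alone of 14 effectors had a range of at least 1 in log2 CPM, at 6.16, 8.53 and 12.1 TPM, with the order of libraries that Rgs2 had. Pik3r5 had a range of 0.65 in log2 CPM and spread more in TPM. Arrb2, an arrestin that uncouples receptors from G proteins, was at 388, 239 and 342 TPM, Grk2 at 102, 92.3 and 89.1 TPM, Arrb1 at 61.4, 70.6 and 70.6 TPM and Grk4, the lowest in the gene table, at 0.91, 0.91 and 1.83 TPM. In the second table Grk4 was at 18.7, 15.4 and 16.5 TPM, above Grk5 and Grk6. Grk6 was the 1 gene of 6 kinases and arrestins with a range of at least 1, at 1.06 in log2 CPM from 192, 687 and 248 counts. Its TPM, 7.96, 11.9 and 7.9, spanned less than 1 log2 unit.

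**Figure D5:**
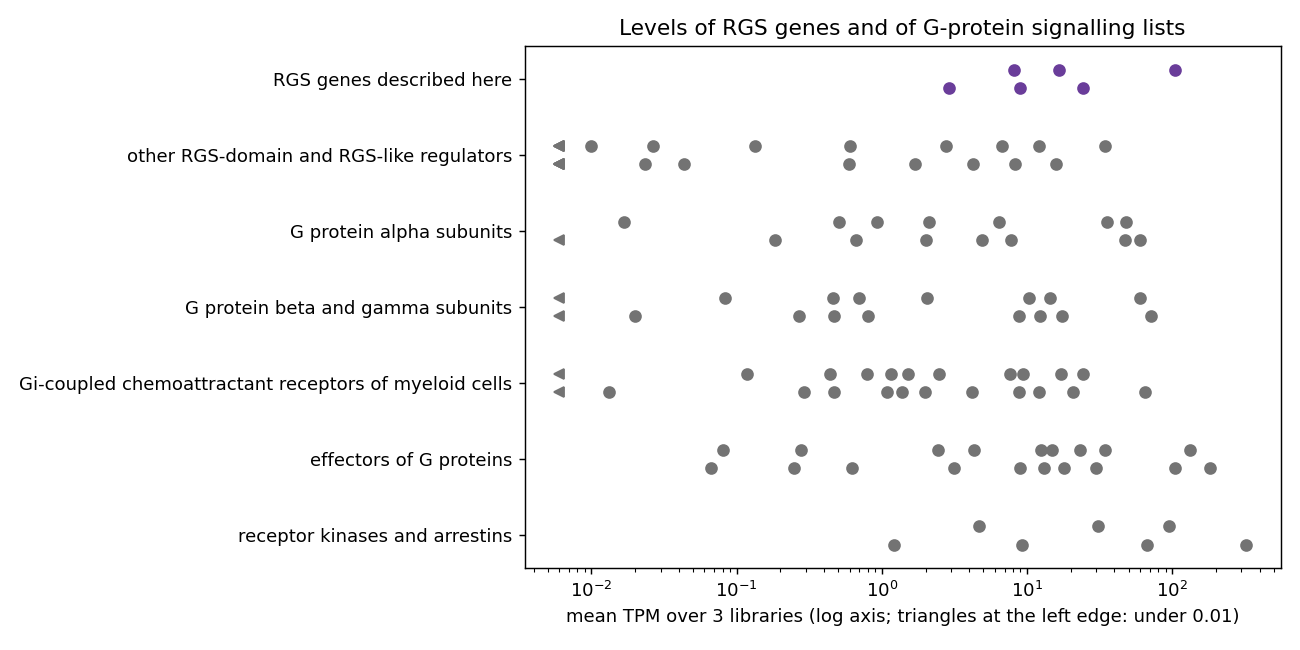
Mean TPM over 3 libraries (log axis) of each gene of the 6 RGS genes and of the signalling lists, 1 point per gene, with triangles at the left edge for means under 0.01 TPM, which lie on top of each other. The 6 RGS genes, which were selected on these data, lie between 2.88 and 104 TPM, and the other regulators reach from 0 to 34.7 TPM.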

How the data were processed

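The data were chromatin-fraction total RNA libraries of 1 group with 3 replicates. Per the notes deposited with each library, the genome is mm10 with annotation M21. Programs, versions and strandedness: not given in the sources used here. Column names match RSEM (gene table and first transcript table) and kallisto (second). The authors' tables hold expected counts, which are estimates. The authors' TPM values are scaled for effective length, per the file headers. The deposited percent column gives a transcript's share of its gene and was recomputed from TPM.

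Symbols came from the target identifiers of the second tables and matched GENCODE M21. Expected counts were rounded to whole numbers. Log2 CPM used TMM factors of edgeR 4.0.16 (1.03, 0.989 and 0.984) with a prior count of 2, over genes only. Entries that are not genes took 2.46, 0.484 and 0.327% of counts. The second table lacked 86 genes, set to 0. Backgrounds were protein-coding genes averaging 50 counts or more. DESeq2 1.42.0 gave alternative size factors, beside other count choices given in the closing section. Intervals and floors (3 counts) cover counting error only. The scaling was tested on simulated data. With 1 group no test was run.

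The members and lists were chosen with earlier results of these data known. Named were each member, the 3 highest and the lowest gene of each signalling list (at 0, all such genes), those with a range of at least 1 log2 unit and a mean of at least 50 counts, the highest marker, and the 5 genes nearest to a member with an SD of at least 0.5. Rgs11, Rgs21, Cmklr1, C5ar2, Gng2, Gnb5, Grk5, Cd3d, Malat1, Ncr1, Klrb1c, S100a8, S100a9 and Ly6g were named after their values were seen. A comparison of the proteins was not made, and some listed genes that the rule covers are not reported here. Analyses ran in R 4.3.3 and Python with pandas, numpy, scipy and matplotlib.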

Additional observations from a re-analysis of the deposited data

Results flagged for a closer look

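For 5 regulators with 0 counts in the gene table of every library, the second transcript table gave more than 3 estimated counts in each library. Rgs7 had a mean of 2.99 TPM there (202, 372 and 243 estimated counts in replicates 1, 2 and 3), all on Rgs7-204, a retained-intron model of 3678 nt. Rgs17 had 1.91 TPM, with 95.7% on the protein-coding model Rgs17-203. Rgs4 had 1.26 TPM, all on the retained-intron model Rgs4-203 of 727 nt. Rgs6 had 0.528 TPM, with 98.8% on the protein-coding model Rgs6-208, and Rgs5 had 0.34 TPM on the protein-coding model Rgs5-201. The cause of the difference between tables was not tested. With 3 libraries, no search for single libraries that stand apart was made.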

How the results depend on the processing

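Of 154 values recomputed under alternatives, 125 moved by less than the SD over libraries (levels and shares), less than the counting interval (ranges) or less than 1.5 times (counts). Under the second quantification the mean TPM of Rgs10 was 72.1 and of Rgs14 12.5, the range of Rgs19 was 0.21, and the retained-intron share of TPM was 12.2% for Rgs10 and 50.8% for Rgs14. On log2(TPM + 1) the range of Rgs19 was 0.92. Of the 5 genes nearest to Rgs1 and to Rgs2, 3 each were shared with those found on log2(TPM + 1). Some alternatives were added after seeing the data, namely those on protein-coding models, posterior means, shares of counts and transcripts under 200 nt. Protein-coding models alone gave mean TPM of 8.4 for Rgs1, 10.7 for Rgs10, 5.58 for Rgs14 and 3.24 for Rgs2, and a range of 2.87 for Rgs1. Posterior mean TPM was 24.9 for Rgs10. The second quantification without transcripts under 200 nt gave 35.1 TPM for Rgs10 and 12.5 TPM for Rgs14. As a share of counts, retained-intron models took 89% of Rgs1, 16.9% of Rgs2 and 21.9% of Rgs10. Of the other alternatives, leaving out 1 replicate gave ranges of 0.79 to 2.66 for Rgs1, 0.58 to 1.18 for Rgs2, 0.06 to 0.76 for Rgs18 and 0.25 to 0.50 for Rgs19, and 1 gene with a range of at least 1 log2 unit in each case. DESeq2 size factors, library totals, the prior count and the count filters moved no value past these limits. Counts of 55 to 105 for Rgs18 and 69 to 162 for Rgs10 limit the precision of both. No paired analysis was possible because there is 1 group.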
